A study of Mus musculus with 5 samples.

Results

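Inhibitory checkpoint receptors are cell surface proteins that restrain T cell activation. The 9 genes described here, *Lag3*, *Pdcd1*, *Ctla4*, *Havcr2*, *Tigit*, *Cd160*, *Btla*, *Cd200* and *Vsir*, were taken by name as the receptors of this kind, out of 55487 gene identifiers in the count files, and all 9 were among the 13525 genes with enough reads to be tested. RNA was sequenced from CD4 single positive (CD4 SP) thymocytes of 3 wild type (WT) mice and 2 *Tet2/3* DKO mice, with 1 library per mouse, and the question was how loss of TET2 and TET3 alters gene expression in these cells. All mice were C57BL/6J and, by the methods of the study, 21 to 30 days old. The *Tet2/3* DKO genotype is Tet2-/-Tet3flx/flxCD4cre: *Tet2* is lost in the whole animal, while *Tet3* is deleted only where the *Cd4* promoter drives Cre, from the CD4 and CD8 double positive stage on. No Cre transgene is given for the WT mice, and 2 animals are the whole *Tet2/3* DKO group. Sorted cells were live, CD24 low, CD4+, TCRb+, CD8- and negative for the CD1d tetramer that marks iNKT cells.

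TET proteins oxidize 5-methylcytosine, a step towards removing methylation from CpG sites. Checkpoint receptors come up when a T cell is activated and stay high when stimulation persists, and they act by recruiting phosphatases, by competing with costimulatory receptors for shared ligands, or by signalling into the cell that binds them. LAG3 binds MHC class II, PD-1 (*Pdcd1*) binds PD-L1 and PD-L2, CTLA-4 takes CD80 and CD86 from CD28, TIGIT competes with CD226 for PVR, and BTLA and CD160 both bind HVEM (*Tnfrsf14*). CD200 differs from the others in being a ligand, which signals through CD200R1 on the cell that it meets, and it is counted among the receptors here for brevity.

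Reads counted on genes ranged from 17607089 in *Tet2/3* DKO replicate 2 to 27267031 in WT replicate 3. *Tet3* was lower in both *Tet2/3* DKO libraries, with a log2 fold change of -1.50 (SE, the standard error, 0.18, edgeR adjusted p = 0.00121), whereas *Tet2* was not (0.46, SE 0.17, edgeR adjusted p = 0.135), and counts per gene cannot show a transcript that lacks single exons. The library labelled *Tet2/3* DKO replicate 1 comes from a mouse given as male but had 744 reads of *Xist* and 7 of 4 Y-linked genes. The library labelled WT replicate 1 is given as female but had 0 and 6821. The *Tet2/3* DKO libraries stood apart from each other as well: the 10 largest T cell receptor beta clonotypes held 8.33% of beta chain reads in replicate 1 and 33.2% in replicate 2, against 0.430% to 0.511% in WT. Reads outside annotated genes made up 5.70% in replicate 1 and 3.51% to 3.72% elsewhere, and its part in the results was not tested. The receptors are therefore given in both *Tet2/3* DKO libraries, and with each of them left out, whereas other named genes are tested over both together.

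Loss of TET2 and TET3 was accompanied by upregulation of *Cd160* and *Lag3*, and the other 7 receptors did not pass the test across both mice. Past the threshold, a Benjamini-Hochberg adjusted p of 0.01 over all tested genes in the quasi-likelihood test of edgeR, 2 of 9 receptors were higher, where 2.42% of all tested genes were, and 0 of 9 were lower, where 1.50% were. None was lower at an unadjusted p under 0.05 or by DESeq2 either, since all 9 log2 fold changes were positive, with a median of 1.29 against 0.01 over all tested genes. Without *Tet2/3* DKO replicate 2, 6 of 9 were positive and the median was 0.24, and without replicate 1 all 9 were positive and the median was 1.89. DESeq2 called 2 receptors as well. In libraries of sorted but mixed cells, more RNA per cell and more cells of an expressing type cannot be told apart. The study named *Lag3* among genes changed both in these same libraries and in earlier libraries of *Tet2/3* DKO iNKT cells. Its call here is therefore not independent evidence.

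The receptors divided by how the *Tet2/3* DKO mice differed from each other. *Tet2/3* DKO replicate 2 was above every WT library for all 9 receptors, as it was for 33.8% of all tested genes, while replicate 1 was above every WT library for 4, as it was for 36.2%. In replicate 1, *Tigit*, *Havcr2* and *Btla* lay inside the WT range, and *Ctla4* and *Cd200* lay below it. Both *Tet2/3* DKO libraries were above every WT library for *Lag3*, *Pdcd1*, *Cd160* and *Vsir*, 4 of 9, where 19.6% of all tested genes were. A separate count, with a limit chosen after the values were seen, took genes at least 2 times as high in 1 library as in every other. Replicate 2 stood out in this way for 6 of 9 receptors, *Lag3*, *Pdcd1*, *Havcr2*, *Tigit*, *Btla* and *Cd200*, where 2.55% of tested genes did, and replicate 1 for 0 of 9, where 1.31% did. The median size of the log2 difference between the *Tet2/3* DKO mice was 1.38 over the receptors and 0.25 over all tested genes. The log2 range of the WT mice was 0.09 to 0.72 for the same genes, with a median of 0.27 over all tested genes.

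**Figure D1:**
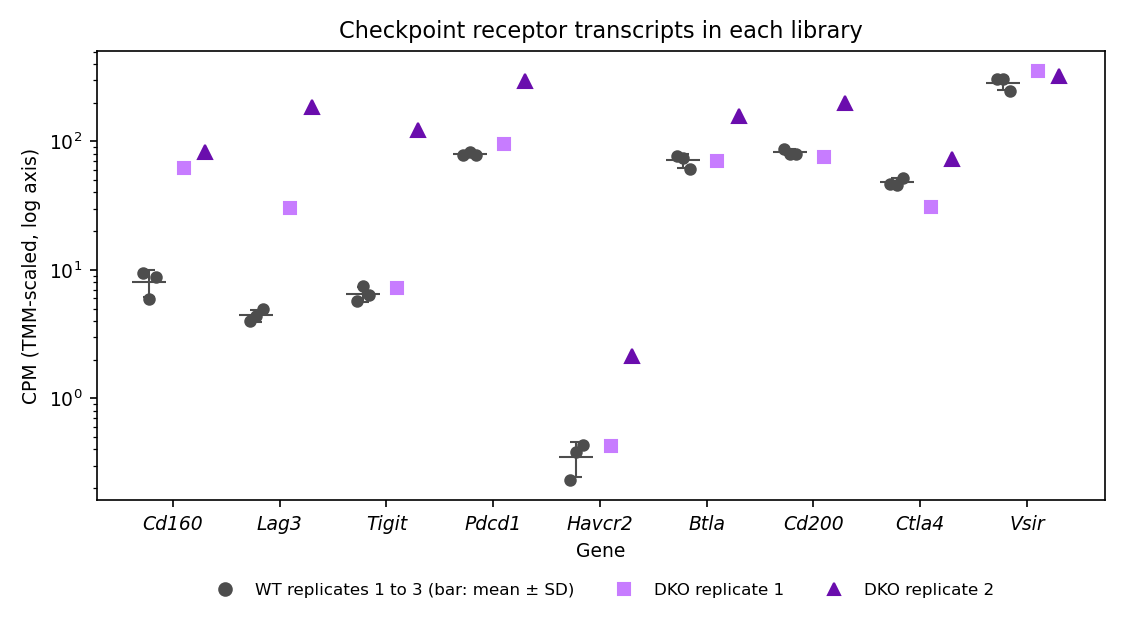
Level of each checkpoint receptor in the 5 libraries, in CPM (reads scaled to a common library size) on a log axis, with each library as a point and bars for the WT mean ± SD. *Cd160* has both *Tet2/3* DKO libraries far above WT and close together, at 62.4 and 83.2 CPM, whereas *Tigit* has 1 at the WT level, 7.25, and the other at 121.6.

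**Figure D2:**
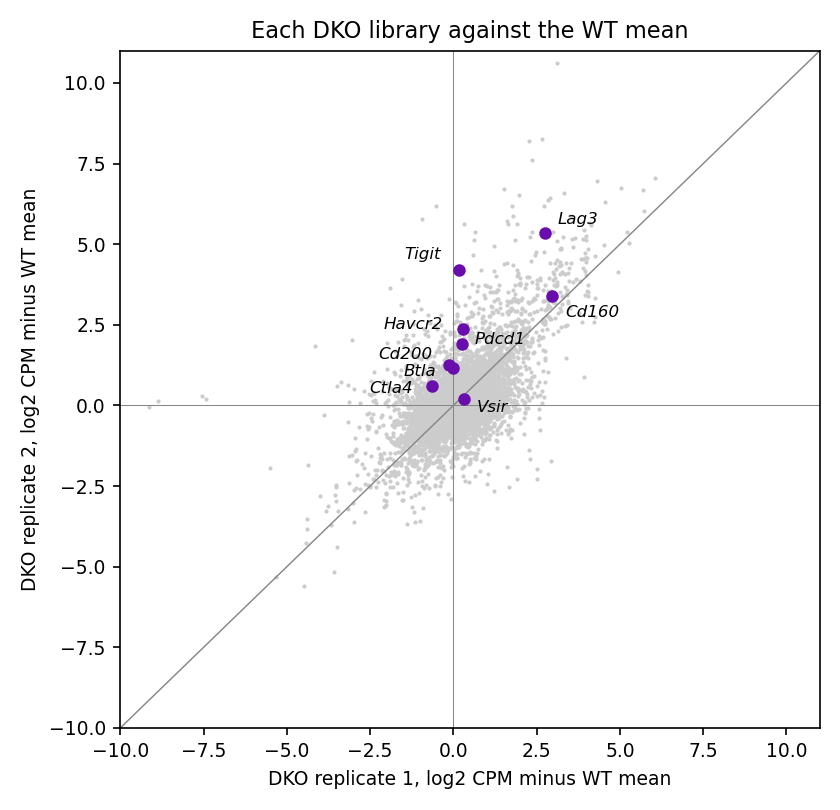
Difference of each *Tet2/3* DKO library from the WT mean in log2 CPM, replicate 1 on the x axis and replicate 2 on the y axis, for the 9 receptors (purple) and all other tested genes (grey), with the line of equal values. *Cd160* and *Vsir* lie near the line, and 8 of 9 receptors lie above it, as 49.7% of all tested genes did.

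Among the HVEM receptors, *Cd160* rose in both *Tet2/3* DKO mice and *Btla* did not pass the test. *Cd160* (ENSMUSG00000038304, chromosome 3 of mm10 from 96798763 to 96829351, minus strand) encodes a receptor otherwise known from NK cells and cytotoxic or innate-like T cells. It had 9.44, 5.94 and 8.75 CPM in WT replicates 1, 2 and 3, and 62.4 and 83.2 CPM in *Tet2/3* DKO replicates 1 and 2. The groups were far apart and the *Tet2/3* DKO mice differed by 1.33-fold, less than the 1.59-fold spread of the WT mice. Its log2 fold change over WT was 3.17 (SE 0.19, edgeR adjusted p = 2.88e-05). It was 2.94 without replicate 2 and 3.36 without replicate 1, and it passed the threshold under all 14 alternatives. Of its exon bases, 68 (2.57%) are shared with *Pdzk1* on the opposite strand, and reads on shared bases were left out of the counts.

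*Btla* (ENSMUSG00000052013, chromosome 16 from 45224315 to 45257670, plus strand), which carries inhibitory tyrosine motifs that recruit phosphatases, had 77.4, 74.5 and 61.2 CPM in WT, against 70.2 and 158 in *Tet2/3* DKO cells. Replicate 1 lay within the WT range and replicate 2 was 2.23 times the WT mean. Its log2 fold change of 0.68 (SE 0.27, edgeR adjusted p = 0.170) did not pass. The shared ligand gene *Tnfrsf14* stood at a log2 fold change of -0.08 (SE 0.24, edgeR adjusted p = 0.888).

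*Lag3* (ENSMUSG00000030124, chromosome 6 from 124904361 to 124911705, minus strand), whose product binds MHC class II alongside CD4, had the largest log2 fold change of the 9. It had 3.98, 4.38 and 4.92 CPM in WT, 30.2 in *Tet2/3* DKO replicate 1 and 184 in replicate 2. Both mice were thus above WT, by 6.81 and 41.7 times the WT mean, but they differed 6.11-fold, a gap at least as large as which was found in 0.998% of tested genes. Together they gave a log2 fold change of 4.58 (SE 0.66, edgeR adjusted p = 0.00275), which was 2.76 in replicate 1 alone and 5.38 in replicate 2 alone. The call was lost when any WT library was left out, with edgeR adjusted p-values of 0.0208, 0.0398 and 0.0349 without WT replicates 1, 2 and 3, and with robust moderation, at 0.127.

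*Tigit* (ENSMUSG00000071552, chromosome 16 from 43648867 to 43664146, minus strand) showed the widest gap between the *Tet2/3* DKO mice. It had 5.76, 7.50 and 6.34 CPM in WT, 7.25 in replicate 1 and 121.6 in replicate 2. Replicate 1 was within the WT range and replicate 2 was 18.6 times the WT mean. A gap between the *Tet2/3* DKO libraries of this size or more, 16.8-fold, occurred in 34 of the 13525 tested genes. The fold change over both, 3.29 on the log2 scale (SE 0.84, edgeR adjusted p = 0.0423), passed at 0.05 but not at 0.01. *Cd226*, the activating receptor that shares the ligand of TIGIT, rose in both mice to a similar level, with 57.4, 51.8 and 58.2 CPM in WT, against 156 and 144 in *Tet2/3* DKO cells (log2 fold change 1.43, SE 0.10, edgeR adjusted p = 4.34e-05). *Pvr*, the shared ligand, stood at a log2 fold change of 0.72 (SE 0.14, edgeR adjusted p = 0.0119).

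The promoters of *Cd160*, high in both *Tet2/3* DKO mice, and *Tigit*, high in 1, are shown to set the CpG sites on which TET proteins can act beside these values. They are the 250 bases before the RefSeq start, from RefSeq on GRCm38.p6, the assembly of mm10, 5′ to 3′ on the gene's strand with each CpG in capitals. *Cd160* is at chr3:96829352-96829601 and *Tigit* at chr16:43664185-43664434, both on the minus strand. The second *Cd160* start, with its promoter at chr3:96814522-96814771, is counted below but not printed. The *Tigit* window lies a little before the gene as annotated for its coordinates above, so that start is from RefSeq alone. The same holds for *Havcr2* among the promoters counted below.
Cd160: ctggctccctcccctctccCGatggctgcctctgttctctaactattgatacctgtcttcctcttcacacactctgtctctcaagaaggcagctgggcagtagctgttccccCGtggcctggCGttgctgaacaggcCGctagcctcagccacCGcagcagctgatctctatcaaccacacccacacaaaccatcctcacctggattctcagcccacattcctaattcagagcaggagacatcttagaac
Tigit: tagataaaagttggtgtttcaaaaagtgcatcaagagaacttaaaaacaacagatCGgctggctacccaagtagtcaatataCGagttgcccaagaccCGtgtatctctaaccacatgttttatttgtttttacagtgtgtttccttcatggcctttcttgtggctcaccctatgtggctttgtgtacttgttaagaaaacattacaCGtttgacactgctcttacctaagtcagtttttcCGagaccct

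Both windows hold 5 CpG. Over the 8 receptors found in the promoter table the number ran from 2 for *Havcr2* to 9 for *Vsir*, around the median of 6 over 32851 promoters, and that of *Cd160* was just below it. *Lag3* is named only. The RUNX motif TGTGGT, searched on both strands, was in 5 of the 9 promoters of these receptors, those of *Havcr2*, *Tigit*, *Btla* and both starts of *Cd160*, and in 14.0% of all promoters. The T-box core GGTGTGA was in 1 of the 9, at the second *Cd160* start, and in 3.33% of all, and the AP-1 motif TGANTCA was in 1 of the 9, that of *Havcr2*, and in 6.75%. The NFAT motif GGAAA was in 4 of the 9 and in 55.6% of all promoters. A match of letters is not a bound site, and methylation was not analysed here.

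The receptors of the CD28 and B7 families, *Pdcd1*, *Ctla4* and *Vsir*, did not pass the threshold across both mice. *Pdcd1* (ENSMUSG00000026285, chromosome 1 from 94038305 to 94052553, minus strand), which encodes PD-1, had 77.9, 82.9 and 78.1 CPM in WT, against 94.5 and 295 in *Tet2/3* DKO cells. Both mice lay above a narrow WT range, replicate 1 at 1.19 and replicate 2 at 3.71 times the WT mean. Over both mice the log2 fold change was 1.29 (SE 0.35, edgeR adjusted p = 0.0557). Of its ligands, *Cd274* (PD-L1) stood at a log2 fold change of 0.24 (SE 0.22, edgeR adjusted p = 0.575), while *Pdcd1lg2* (PD-L2), named here after its values were seen, had 65, 56 and 91 reads in WT, against 90 and 266 in *Tet2/3* DKO cells (log2 fold change 1.76, SE 0.48, edgeR adjusted p = 0.0540).

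*Ctla4* (ENSMUSG00000026011, chromosome 1 from 60887000 to 60915832, plus strand) was, with *Cd200*, a receptor on which the *Tet2/3* DKO mice took opposite sides of WT. It had 46.9, 46.1 and 52.1 CPM in WT, 30.9 in replicate 1 and 72.9 in replicate 2. Replicate 1 was below every WT library and replicate 2 above every one, and the log2 fold change of 0.09 (SE 0.28, edgeR adjusted p = 0.896) averages over the 2. *Cd86*, which encodes a ligand of CTLA-4, rose in both mice, from 38.0 ± 5.80 CPM (SD, n = 3) in WT to 104 and 81.6 (log2 fold change 1.29, SE 0.15, edgeR adjusted p = 0.00108). *Cd28*, which competes for it, stood at a log2 fold change of 0.12 (SE 0.09, edgeR adjusted p = 0.510).

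*Vsir* (ENSMUSG00000020101, chromosome 10 from 60346851 to 60372684, plus strand) encodes VISTA, a receptor of resting T cells. It lies within *Cdh23* and shares no exon bases with it. It had 305, 303 and 246 CPM in WT, against 351 and 324.5 in *Tet2/3* DKO cells. Both mice were above every WT library, but by little, and the *Tet2/3* DKO libraries differed by less than the WT libraries did. Its log2 fold change was 0.25 (SE 0.11, edgeR adjusted p = 0.216), and *Vsir* was the only receptor that did not pass in any of the analyses with a library left out.

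*Havcr2* (ENSMUSG00000020399, chromosome 11 from 46454935 to 46481255, plus strand), which encodes TIM-3, was near the limit of detection, with 6, 9 and 12 reads in WT, against 9 and 38 in *Tet2/3* DKO cells. The first 4 of these values overlap, and replicate 2 alone is higher. The log2 fold change of 1.78 (SE 0.70, edgeR adjusted p = 0.164) is correspondingly uncertain. *Lgals9*, which encodes its ligand galectin-9, stood at a log2 fold change of 0.22 (SE 0.15, edgeR adjusted p = 0.440).

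*Cd200* (ENSMUSG00000022661, chromosome 16 from 45382135 to 45409053, minus strand) had 87.7, 79.6 and 80.2 CPM in WT, 75.5 in replicate 1 and 197 in replicate 2. Replicate 1 was just below the lowest WT library, and replicate 2 was 2.39 times the WT mean. Over both, the log2 fold change was 0.72 (SE 0.30, edgeR adjusted p = 0.193). Its receptor gene *Cd200r1* fell in both mice, from 47.2 ± 3.41 CPM (SD, n = 3) to 19.8 and 26.8 (log2 fold change -1.02, SE 0.15, edgeR adjusted p = 0.00321).

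**Figure D3:**
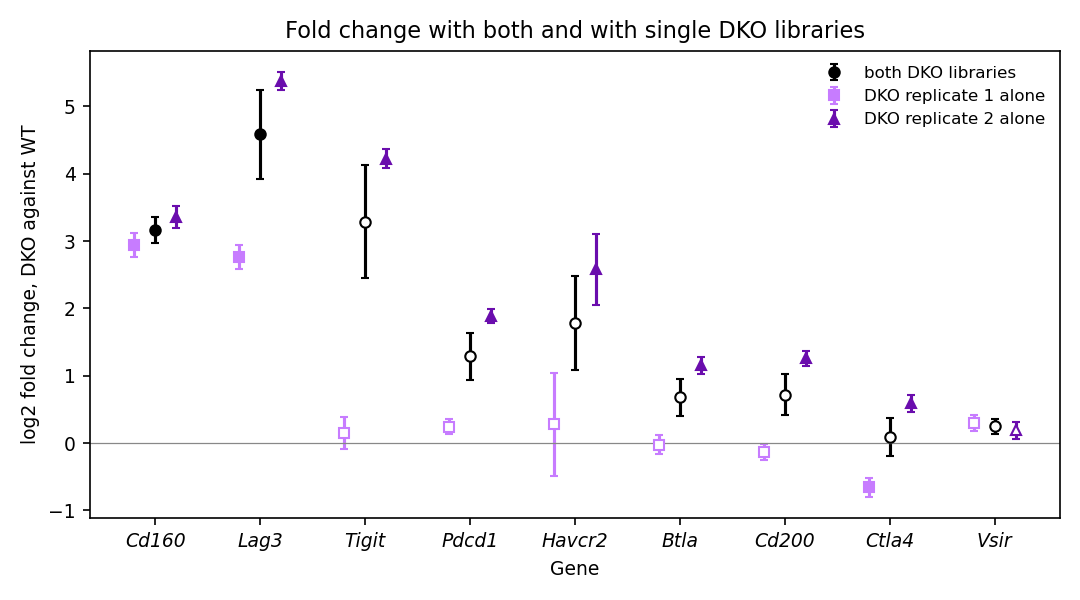
Log2 fold change of *Tet2/3* DKO over WT for each receptor with both *Tet2/3* DKO libraries and with either one left out; bars are SEs, and filled markers have an edgeR adjusted p under 0.01. *Cd160* is filled in all 3 analyses at 2.94 to 3.36, and *Ctla4* goes from -0.65 without replicate 2 to 0.59 without replicate 1.

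Which receptors were called depended on which *Tet2/3* DKO mouse was used. Against the 3 WT libraries, replicate 2 alone had 8 of 9 receptors higher, all but *Vsir*, where 5.74% of all tested genes were higher. Replicate 1 alone had 2 of 9 higher, *Lag3* and *Cd160*, where 4.98% of all tested genes were, and 1 of 9 lower, *Ctla4*, where 3.31% were. For *Ctla4* the log2 fold changes in replicates 2 and 1 were 0.59 (SE 0.13, edgeR adjusted p = 0.00382) and -0.65 (SE 0.14, edgeR adjusted p = 0.00469), past the threshold in opposite directions. In the same order, for *Tigit* they were 4.22 (SE 0.14) and 0.15 (SE 0.24), and for *Pdcd1* 1.89 (SE 0.10) and 0.24 (SE 0.11). The other receptors went from 0.28 in replicate 1 alone to 2.58 in replicate 2 alone for *Havcr2*, from -0.13 to 1.26 for *Cd200* and from -0.022 to 1.16 for *Btla*, while *Vsir* had 0.30 and 0.19. In these analyses the lone library is assumed to vary as the WT libraries do.

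The order of the receptors by level changed between mice. Levels were compared per kilobase of exon, as RPKM, which is CPM divided by exon length in kilobases. In WT, *Vsir* had the highest level at 56.8 RPKM, followed by *Pdcd1* at 41.3, *Cd200* at 24.8, *Btla* at 20.9, *Ctla4* at 20.8, *Tigit* at 7.11, *Cd160* at 3.04, *Lag3* at 2.10 and *Havcr2* at 0.128. The WT libraries of *Btla* and *Ctla4* overlapped, as did those of *Cd160* and *Lag3*, and all other neighbours were separated. In *Tet2/3* DKO replicate 1 the first 2 places were unchanged and *Cd160* came next, at 23.6 RPKM, with *Lag3* at 14.3. In replicate 2 the first 3 were *Pdcd1* at 153, *Tigit* at 132 and *Lag3* at 87.5 RPKM. Summed over the 9 genes the level was 182, 182 and 167 RPKM in WT, against 222 and 607 in *Tet2/3* DKO replicates 1 and 2.

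Genes linked to the receptors by function were also examined. Of 9 tested ligands and binding partners, 1 rose and 1 fell, *Cd86* and *Cd200r1* above, and the median log2 fold change was 0.22. DESeq2 called 3 of these higher and 1 lower. Of 12 other inhibitory receptors tested, 1 rose and 2 fell, with a median of -0.32. *Cd5*, a brake on T cell receptor signalling, fell from 907 ± 29.4 CPM (SD, n = 3) to 404 and 344 (log2 fold change -1.28, edgeR adjusted p = 8.57e-05). *Cd101* fell too (-1.31, edgeR adjusted p = 0.00259), and *Nt5e*, which encodes the ecto-enzyme CD73, rose from 18.8 ± 2.94 to 38.2 and 88.5 CPM (1.74, edgeR adjusted p = 0.00720).

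Costimulatory receptors moved in both directions. Of 13 tested, 3 rose, *Cd226*, *Slamf6* (log2 fold change 1.14, edgeR adjusted p = 0.000330) and *Icos* (1.08, edgeR adjusted p = 0.00532), and 2 fell, *Cd6* (-1.33, edgeR adjusted p = 0.000151) and *Slamf1* (-0.93, edgeR adjusted p = 0.00152). Of 16 adaptors and phosphatases that carry inhibitory signals, 14 did not pass. *Lax1*, an adaptor that dampens antigen receptor signalling, rose (0.95, edgeR adjusted p = 0.00717), and *Ubash3b*, a phosphatase, fell (-0.78, edgeR adjusted p = 0.00300). *Ptpn6*, which encodes SHP-1, a phosphatase recruited by several of the receptors, stood at a log2 fold change of -0.12 (SE 0.08, edgeR adjusted p = 0.422).

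Of 22 transcription factors linked to checkpoint receptor expression, 4 rose and 1 fell. *Eomes*, a T-box factor of cytotoxic and memory cells, rose in both mice, from 1.78, 2.06 and 2.62 CPM in WT to 81.2 and 92.8 (log2 fold change 5.32, edgeR adjusted p = 1.02e-06). *Stat4* (1.84, edgeR adjusted p = 3.09e-05) and *Batf* (0.79, edgeR adjusted p = 0.00173) also rose in both mice by similar amounts. *Maf* rose unevenly, from 2.13, 2.82 and 2.40 CPM to 9.01 and 33.35 (3.09, edgeR adjusted p = 0.00652). *Tcf7*, a factor of naive and stem-like T cells, fell (-0.56, edgeR adjusted p = 0.00741). *Tox*, named after its values were seen as a regulator of exhausted cells, stood at a log2 fold change of 0.28 (SE 0.09, edgeR adjusted p = 0.100). Larger changes that also missed the threshold were those of *Tox2* (3.29, edgeR adjusted p = 0.0129), *Tbx21* (1.87, edgeR adjusted p = 0.0190) and *Nr4a2* (1.29, edgeR adjusted p = 0.0447). Over the list 14 of 22 log2 fold changes were positive, and DESeq2 called 7 higher and 3 lower.

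**Figure D4:**
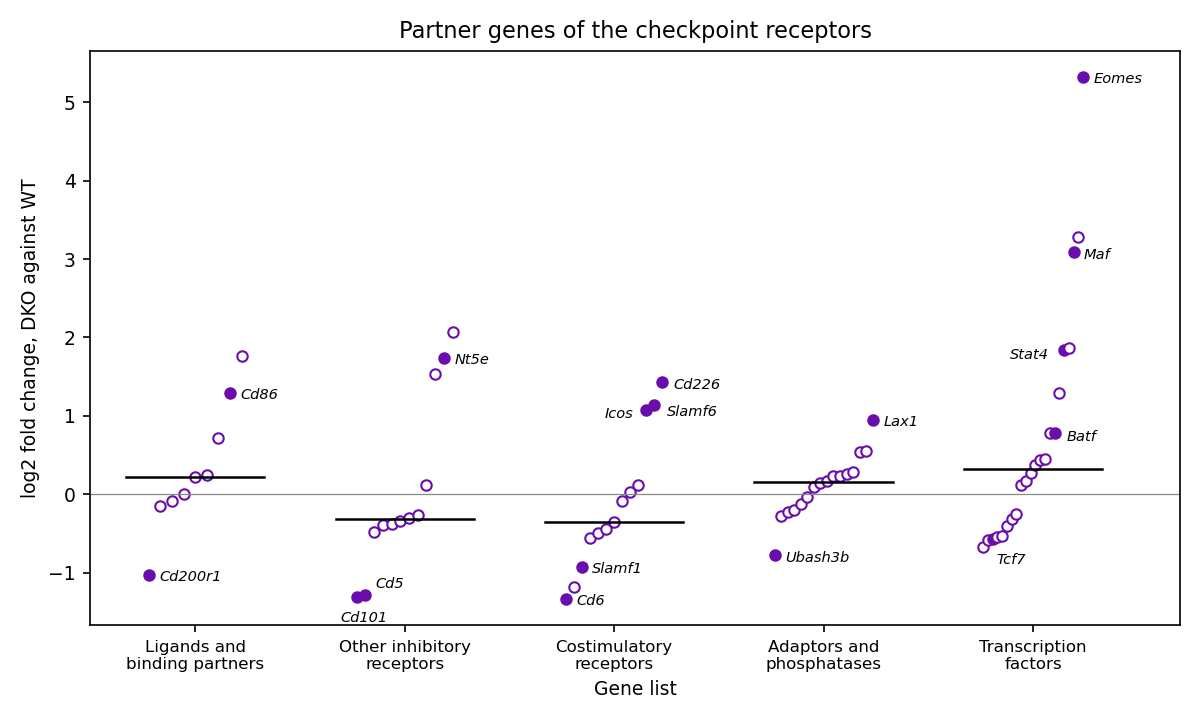
Log2 fold change of *Tet2/3* DKO over WT for the tested genes of 5 lists linked to the receptors, with 1 point per gene; filled points have an edgeR adjusted p under 0.01 and are named, and lines are list medians. The medians lie between -0.35 and 0.33, and *Eomes* is highest at 5.32.

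Markers of other cells that bear these receptors moved with them in part. Of 11 regulatory T cell genes 1 rose and 1 fell. *Foxp3*, their defining factor, fell, with 1147, 1379 and 1490 reads in WT, against 376 and 435 in *Tet2/3* DKO cells (log2 fold change -1.31, edgeR adjusted p = 0.00191), and *Izumo1r* rose (0.71, edgeR adjusted p = 0.00126). The summed level of the list was 1522 to 1630 CPM in WT, against 1318 and 1580 in *Tet2/3* DKO replicates 1 and 2, and genes within it moved in different directions. The part of such cells in the receptor levels was not tested.

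T follicular helper genes, known to accompany *Pdcd1*, *Btla* and *Cd200*, had their highest summed level in replicate 2. Of 8, 2 rose, *Il4* (log2 fold change 2.32, edgeR adjusted p = 0.00404) and *Icos*, and 0 fell. DESeq2 called 4 higher and 0 lower, and at an unadjusted p under 0.05 in edgeR 8 were higher and 0 lower. Over all genes DESeq2 called 1027, and the share of all genes under the unadjusted limit is not given here. Of the 8, 4 were at least 2 times as high in replicate 2 as in every other library. Their summed level was 389 to 451 CPM in WT, 627 in replicate 1 and 994 in replicate 2. Most of this was *Icos*, with 252 to 298 CPM in WT, 437 in replicate 1 and 710 in replicate 2. *Sh2d1a* added 121 to 141, 172 and 211 in the same order. *Bcl6*, the defining factor of these cells, had 1.82 to 2.36 CPM in WT, 3.62 in replicate 1 and 3.30 in replicate 2 (log2 fold change 0.79, SE 0.28, edgeR adjusted p = 0.132). *Cxcr5* and *Il21*, named like *Bcl6* after their values were seen, had 2.75 to 4.72 and 1.02 to 2.02 CPM in WT, 5.10 and 0.429 in replicate 1, and 25.4 and 13.3 in replicate 2. The part of such cells in the receptor levels was not tested.

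Of 12 genes of NK cells and innate-like T cells, in which *Cd160* is known, 7 rose and 1 fell, with summed levels of 357 to 371 CPM in WT, 643 in replicate 1 and 1041 in replicate 2. Most of the rise in these sums was *Nkg7*, with 26.7 to 37.5 CPM in WT, 295 in replicate 1 and 522 in replicate 2. *Nkg7*, a cytotoxic granule gene, rose (log2 fold change 3.74, edgeR adjusted p = 3.09e-05), as did *Zbtb16*, which encodes the innate-like factor PLZF, with 32, 13 and 24 reads in WT, against 251 and 253 in *Tet2/3* DKO cells (3.85, edgeR adjusted p = 8.57e-05). *Klrd1* (2.59, edgeR adjusted p = 0.000756) and *Klra7* (3.85, edgeR adjusted p = 0.00219) rose too, whereas *Cd7* fell (-0.86, edgeR adjusted p = 0.00345). The *Klra* genes are a family of similar sequences, and the assignment of reads among them is uncertain. *Ncr1*, a defining NK cell gene, had 1, 0 and 0 reads in WT, against 31 and 40 in *Tet2/3* DKO cells. *Ncr1*, and *Blk* below, had enough reads to be tested only in the *Tet2/3* DKO libraries. Their calls as risen genes are thus no independent support. The T cell receptor gamma genes *Tcrg-C1*, *Tcrg-C2* and *Tcrg-C4* were among 5 of 7 gamma-delta T cell genes that rose (log2 fold changes 4.04 to 4.40), with *Maf* above and *Blk*, a Src family kinase gene that had 3, 8 and 9 reads in WT, against 116 and 295 in *Tet2/3* DKO cells (5.34, edgeR adjusted p = 0.00163). For the gamma genes similar sequence makes their reads uncertain to divide, and the list was not uniform. *Trdc*, the delta chain gene, had 0.33 (SE 0.20, edgeR adjusted p = 0.377), and *Sox13*, a factor of the gamma-delta lineage, had 28, 25 and 26 reads in WT, against 5 and 4 in *Tet2/3* DKO cells (-2.12, SE 0.52, edgeR adjusted p = 0.0361). Both are named after their values were seen. The part of such cells in the levels of *Cd160* and *Lag3* was not tested.

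Lists for the remaining cell types were counted in the same way. Of 6 CD8 T cell genes 1 rose, *Prf1* (log2 fold change 1.67, edgeR adjusted p = 3.09e-05), and 1 fell, *Cd8b1* (-1.29, edgeR adjusted p = 0.000168), and *Cd8a* had 70, 69 and 148 reads in WT, against 121 and 155 in *Tet2/3* DKO cells. Of 6 tested genes of double positive thymocytes 1 fell, again *Cd8b1*, and *Rag1* was at 0 in every library. None of the 2 B cell, 8 dendritic and myeloid and 3 thymic epithelial genes tested passed in edgeR or in DESeq2. At an unadjusted p under 0.05 in edgeR, 1, 4 and 1 of them were higher and 0, 1 and 2 lower, without the share of all tested genes for comparison. The summed dendritic and myeloid level was 178 to 218 CPM in WT, 231 in replicate 1 and 358 in replicate 2. The sorted type itself was present in every library, although 5 of 12 conventional CD4 SP genes fell, *Cd5*, *Ccr7*, *Zbtb7b*, *S1pr1* and *Cd4*, with log2 fold changes of -1.28 to -0.64.

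The genes whose pattern over the 5 libraries was nearest to that of each called receptor were found by the Euclidean distance of log2 CPM relative to the WT mean, among 10636 genes. Nearest to *Cd160* were *Gm42031* (distance 0.263), *Adgrg5* (0.491), an adhesion G protein-coupled receptor, and *Plac8* (0.526), all high at similar levels in both *Tet2/3* DKO mice. *Adgrg5* had 2.51, 2.02 and 2.73 CPM in WT, against 25.9 and 27.4 in *Tet2/3* DKO cells. Nearest to *Lag3* were *Fam20a* (0.700), *Tcrg-V4* (0.716) and *Chst2* (0.782), and these shared its difference between the mice. *Fam20a* had 0.503, 0.801 and 0.474 CPM in WT, 3.34 in replicate 1 and 27.4 in replicate 2. With 5 libraries, likeness of this kind is a description.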

How the data were processed

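For each library the authors trimmed reads with fastp 0.21.0, aligned them with STAR 2.7.5a to mm10 (GRCm38) and deposited raw read counts per gene, without normalization or pooling. They also deposited T cell receptor clonotype counts, whose shares were computed here, and clonotype fractions, which were not used. The tool behind the clonotypes is not given in the sources used here. SMART-seq v4 libraries do not keep strand, and counts without regard to strand were used (49.8% to 50.2% of reads on the first strand).

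Counts were tested with edgeR 4.0.16 in R 4.3.3 (quasi-likelihood test with its newer dispersion moderation, TMM scaling, filterByExpr, Benjamini-Hochberg adjustment over 13525 genes, threshold 0.01). The SE of a log2 fold change is its absolute value over the root of the F statistic. CPM used TMM-scaled library sizes, log2 CPM a prior count of 2, and RPKM was CPM per kilobase of the exons of GENCODE M21, in which 55227 of 55487 identifiers were found. Wilson intervals (95%) of the *Tet2/3* DKO beta chain shares were 7.85% to 8.85% and 32.3% to 34.1%. Without molecular identifiers these cover counting error only. The p-values measure the spread between mice of 1 genotype. The edgeR test was run on counts simulated with the same dispersion for every gene and both groups. That simulation had no gap between mice like that of the *Tet2/3* DKO libraries. Genotypes and replicate numbers came from the labels, and the age from the study's methods, in which all mice are male. Replicate numbers name different animals and were not used to pair the mice in the main test. DESeq2 1.42.0, other normalizations, filters, strand columns, moderation, thresholds, a replicate block and leaving out each library were tried as alternatives.

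The receptors, the 16 gene lists and the tests were chosen with earlier results of these data known. Genes named are every receptor, *Tet2* and *Tet3*, up to 6 genes per list past the threshold by smallest p, the defining genes *Foxp3*, *Zbtb16*, *Cd8a*, *Ncr1* and *Rag1*, and the 3 genes nearest in pattern to each called receptor above a mean log2 CPM of 1. Other partners of the receptors and other list genes were named after their values were seen. Some genes are not reported here.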

Additional observations from a re-analysis of the deposited data

How the results depend on the processing

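*Cd160* kept its direction and passed the threshold under all 14 alternatives, with adjusted p-values from 1.86e-45 to 0.00167 and log2 fold changes of 2.94 to 3.36. *Vsir* passed under none, with adjusted p-values of 0.116 to 0.443. The number of receptors past the threshold, 2 with both *Tet2/3* DKO libraries, was 1 with robust moderation, 3 at the threshold of 0.05, and 1 to 8 with each library left out. The 1 is *Cd160* in each case. Over all genes the count, 530, was 1027 with DESeq2, 1173 at the threshold of 0.05, and 111 to 1122 with each library left out. Leaving out a *Tet2/3* DKO library also removes the spread between those mice from the fit. With each library left out the log2 fold changes ran from -0.65 to 0.59 for *Ctla4*, from -0.022 to 1.16 for *Btla* and from -0.13 to 1.26 for *Cd200*, negative only without *Tet2/3* DKO replicate 2. Over all alternatives the adjusted p ran from 1.55e-13 to 0.127 for *Lag3*, from 2.6e-12 to 0.742 for *Tigit*, from 9.34e-10 to 0.310 for *Pdcd1* and from 0.0027 to 0.853 for *Havcr2*, which the strand-specific counts left untested.

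With the replicate number as a block 358 genes and 2 receptors passed, and deviations of same-numbered libraries correlated at 0.015 and 0.004. With 2 *Tet2/3* DKO libraries these values are not separate checks, and they cannot exclude a batch shared by number. Only 2 *Tet2/3* DKO mice were sequenced, and a wider spread between mice of this genotype cannot be seen in them. *Havcr2* is limited by depth, with 6 to 12 reads per WT library.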

Other observations

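Genes of cell division gave no call with edgeR. Of 13 tested, 0 passed the threshold of 0.01 in edgeR's quasi-likelihood test in either direction, and DESeq2 gave 1, lower. At an unadjusted p under 0.05 in edgeR 0 were higher and 1 lower, again without the share of all tested genes. The median of their log2 fold changes was -0.13. Their summed level was 1875 to 2037 CPM in WT, 1438 in *Tet2/3* DKO replicate 1 and 2142 in replicate 2.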
